A study of Mus musculus with 6 samples.

Results

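The immunoglobulin heavy chain genes of the mouse lie together on chromosome 12, and RNA from 101 of them was measured here in bone marrow leukaemia of mice with or without *Tet2*. The members were chosen by measured reads: a gene annotated as a heavy chain variable (V), diversity (D), joining (J) or constant (C) gene belonged if its reads, summed over the 6 libraries, reached 10. Of 138 such genes in the files, out of 53458 genes of all kinds, 101 reached that total, namely 8 of 8 C, 4 of 4 J, 0 of 13 D and 89 of 113 V genes. At the edge of the rule, *Ighv2-6-8* with 13.1 reads, *Ighv1-11* with 14.0 and *Ighv8-6* with 16.6 were just inside, and *Ighv1-62-1* with 8.30, *Ighv8-5* with 6.34 and *Ighv1-67* with 5.00 were just outside.

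A heavy chain gene is assembled in developing B cells, where RAG enzymes join one V, one D and one J segment upstream of *Ighm*, the constant gene of IgM. Class switching later replaces *Ighm* by a downstream constant gene (*Ighg* for IgG, *Ighe* for IgE, *Igha* for IgA), and alternative 3′ ends of the constant RNA encode either a receptor anchored in the membrane or a secreted antibody. Plasma cells, the antibody-secreting end stage of the lineage, make these RNAs in very large amounts.

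Acute myeloid leukaemia (AML) blasts were compared between 3 Cebpa-/p30 Tet2+/+ mice (mice 19, 23 and 24) and 3 Cebpa-/p30 Tet2-/- mice (mice 5, 7 and 8) labelled as strain C57BL/6, and values for a genotype are always given in that order of mice. Mice of both genotypes had one *Cebpa* allele deleted and carried on the other the leukaemia-associated p30 form of C/EBPα, a myeloid transcription factor, and they differed in *Tet2*, whose product oxidises methylcytosine. The deletions were made by Mx1-Cre, an interferon-responsive recombinase switched on with poly(I:C) after marrow of individual donors had been grafted into lethally irradiated congenic female recipients, and marrow was taken when a mouse became moribund. Cells were sorted as live, donor-derived (CD45.2+) and negative for CD3, B220 and Ter119, a gate that removes T cells, most B cells and red cell precursors but that contains no plasma cell marker. The age of each mouse at harvest is not given in the sources used here. In the paper, median survival was shorter for Cebpa-/p30 Tet2-/- than for Cebpa-/p30 Tet2+/+ recipients. Age and time since grafting may thus differ by genotype, and their part was not tested. No source names a batch.

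The libraries held 13036643 to 32855343 estimated reads. The myeloid list had summed levels of 8869 to 11115 CPM (reads scaled to a common library size, with factors by trimmed mean of M values) in Tet2+/+ mice and 9542 to 12296 CPM in Tet2-/- mice, with overlap. Of its 12 genes 0 passed the adjusted threshold in edgeR, and at an unadjusted p under 0.05 *Cd34* was lower (log2 fold change -1.41) and *Ly6c2* and *Ms4a3* were higher (0.89 and 0.69), each without overlap. *Mpo*, the gene of the list with the highest mean level, was also lower in every Tet2-/- mouse (log2 fold change -0.49). The median log2 fold change of the list was 0.51. DESeq2 on the same counts called 1 gene of the list higher. *Tet2* RNA was at 73.6, 79.5 and 98.4 CPM in Tet2+/+ mice and 111, 79.4 and 96.7 CPM in Tet2-/- mice. These counts run over the whole transcript and so do not check the deletion of part of the gene. Among all 22170 genes tested with the quasi-likelihood test of edgeR (p adjusted by Benjamini-Hochberg), 10 were lower and 0 higher in Tet2-/- mice at an adjusted p under 0.05, with 1135 lower and 664 higher at an unadjusted p under 0.05.

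Heavy chain RNA was lower in every Tet2-/- mouse than in every Tet2+/+ mouse, in each of the 3 classes of gene that gave reads. Summed over the 101 members, it made up 0.125, 0.208 and 0.187% of the reads of the Tet2+/+ mice and 0.0576, 0.0366 and 0.0389% of the reads of the Tet2-/- mice. The summed level was 1260, 1883 and 1715 CPM in Tet2+/+ mice (mean 1619 ± 322, SD, n = 3) and 599, 422 and 391 CPM in Tet2-/- mice (470 ± 112, SD, n = 3), a 3.44-fold difference of means or -1.78 on the log2 scale. Mouse 5 was the highest of its genotype and mouse 19 the lowest of the other, and the groups stayed apart by the gap between these mice. In sorted bulk RNA, fewer cells of one type and less RNA per cell cannot be told apart.

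By class, the C genes summed to 1016, 1508 and 1365 CPM in Tet2+/+ mice and to 499, 353 and 344 CPM in Tet2-/- mice, a 3.25-fold difference of means. The V genes summed to 224, 340 and 321 CPM against 89.7, 64.6 and 42.9 CPM, a 4.49-fold difference. The J genes summed to 20.3, 35.3 and 29.2 CPM against 10.3, 4.57 and 3.69 CPM, a 4.56-fold difference. The V reads were also fewer for a given number of C reads: per 100 C reads there were 22.1, 22.6 and 23.5 V reads in Tet2+/+ mice and 18, 18.3 and 12.5 in Tet2-/- mice, without overlap. For J reads the numbers were 2, 2.34 and 2.14 against 2.07, 1.29 and 1.07, and they overlapped, since mouse 5 was above mouse 19.

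**Figure D1:**
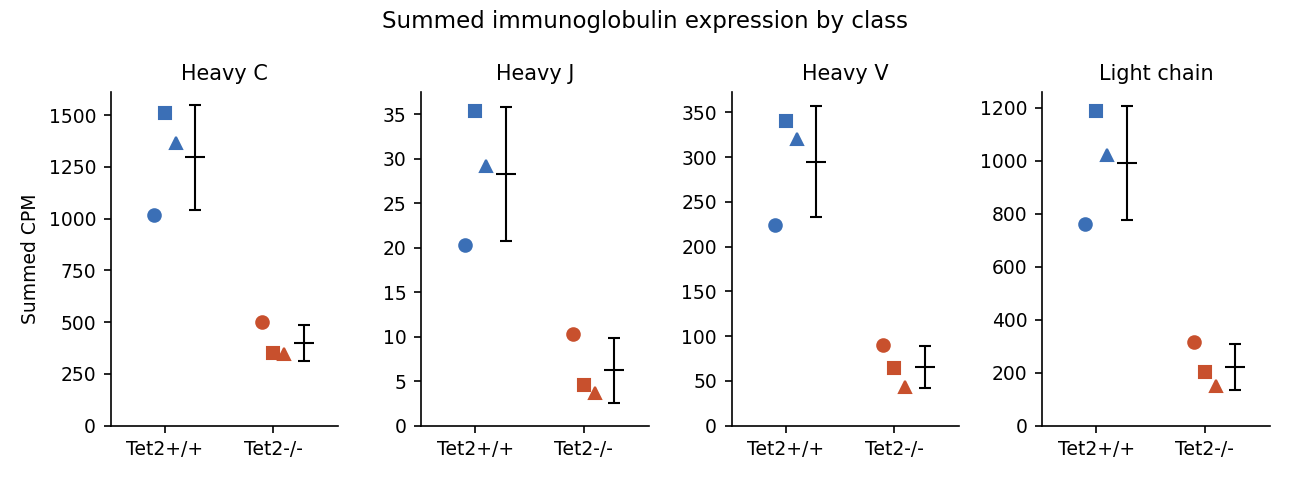
Summed CPM of heavy chain C, J and V genes and of light chain genes in each mouse (circle, square and triangle for mice 19, 23 and 24 in blue and for mice 5, 7 and 8 in red), with the mean and SD of each genotype as a black bar. In each panel the 3 Tet2-/- mice lie below the 3 Tet2+/+ mice, for C genes at 344 to 499 CPM against 1016 to 1508 CPM.

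The partner light chain genes, of which 97 reached 10 reads, gave the same order of mice within each genotype. Their summed level was 762, 1188 and 1022 CPM in Tet2+/+ mice and 317, 202 and 148 CPM in Tet2-/- mice, a 4.46-fold difference of means. There were 165, 159 and 168 heavy chain reads per 100 light chain reads in Tet2+/+ mice and 189, 209 and 263 in Tet2-/- mice, so that in proportion to light chains the heavy chain reads were more numerous in each Tet2-/- mouse.

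Gene by gene, 94 of the 101 members had a fitted log2 fold change below 0, where 49.9% of all genes tested did. The median of the members was -2.42, against 0.00 for all genes. At an unadjusted p under 0.05 in edgeR's quasi-likelihood test, 59 members were lower and 0 higher, beside 5.12% of all genes that were lower at that level. All 3 Tet2-/- mice were below all 3 Tet2+/+ mice for 51 members, beside 7.94% of all genes tested. After Benjamini-Hochberg adjustment over all genes, 1 member, *Ighv8-12*, was lower, beside 0.0451% of all genes. DESeq2 on the same counts called 34 members lower (1.47% of all genes) and 0 higher, and on length-scaled counts 30 lower (1.44% of all genes) and 0 higher.

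These counts describe the members and are not independent of how they were chosen. The 101 members passed the low-count filter of the test, which asks for nearly the same total as the rule. For 27 of them the Tet2-/- mice together held under 10 reads, and for 5 the Tet2+/+ mice did. All of these but *Ighv8-6* entered only through the genotype in which they were higher. *Ighv8-6* was under 10 in both genotypes, with 3.03, 2 and 3 reads in Tet2+/+ mice and 5, 3.53 and 0 in Tet2-/- mice. Among the 70 members with at least 10 reads in each genotype the median was -2.05, with 38 lower at an unadjusted p under 0.05. The 79 members with at least 50 reads had a median of -2.49.

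Among the constant genes, *Ighm* and *Igha* held most of the RNA. *Ighm*, at chr12:113418558-113422730 on the minus strand of GRCm38, encodes the heavy chain of IgM. It was at 640, 852 and 760 CPM in Tet2+/+ mice and at 256, 307 and 261 CPM in Tet2-/- mice. Both genotypes were tight around their means of 751 ± 106 and 275 ± 28.1 CPM (SD, n = 3) and did not overlap. The log2 fold change was -1.45 (SE 0.20), with an adjusted p of 0.108 in the quasi-likelihood test of edgeR, Benjamini-Hochberg adjusted. *Ighm* thus did not pass the threshold in that fit, and DESeq2 on the same counts gave an adjusted p of 5.3e-09.

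*Igha*, the constant gene of IgA and the last of the locus, was more variable between mice. Its level was 244, 407 and 383 CPM in Tet2+/+ mice and 184, 32.5 and 56.1 CPM in Tet2-/- mice. The groups did not overlap, but mouse 5 had over 3 times the level of the other two Tet2-/- mice. The log2 fold change was -1.92 (SE 0.62, adjusted p = 0.539 in edgeR's quasi-likelihood test).

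The 4 IgG constant genes had lower means in the Tet2-/- mice. For 3 of them every Tet2-/- mouse was below every Tet2+/+ mouse, beside 7.94% of all genes tested. *Ighg2b* was at 41.1, 137 and 79.7 CPM in Tet2+/+ mice and at 14.5, 9.77 and 13.9 CPM in Tet2-/- mice, with a log2 fold change of -2.75 (SE 0.44, edgeR adjusted p = 0.157). *Ighg1* was at 11.8, 17.1 and 16.1 CPM against 2.78, 0.129 and 2.93 CPM, a log2 fold change of -2.93 (SE 0.84, edgeR adjusted p = 0.487). For *Ighg1* the highest Tet2-/- mouse was far below the lowest Tet2+/+ mouse, and mouse 7 had only 2 reads.

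*Ighg2c* was at 38.5, 90.5 and 106 CPM in Tet2+/+ mice and at 36.9, 2.19 and 7.11 CPM in Tet2-/- mice, a log2 fold change of -2.34 (SE 0.94, edgeR adjusted p = 0.604). Mouse 5 nearly reached mouse 19. *Ighg3* was at 36.8, 1.34 and 18.2 CPM against 0.759, 0.514 and 2.12 CPM, a log2 fold change of -4.05 (SE 1.14, edgeR adjusted p = 0.466). The genotypes overlapped in *Ighg3*, since mouse 23 was below mouse 8. DESeq2 on the same counts called 3 of the 4 IgG genes lower, beside 1.47% of all genes. Its adjusted p-values were 7.3e-07 for *Ighg2b*, 0.0133 for *Ighg1*, 0.00264 for *Ighg3* and 0.161 for *Ighg2c*.

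*Ighd* and *Ighe* were scarce. *Ighd*, the constant gene of IgD that naive B cells co-express with *Ighm*, was at 3.59, 2.57 and 0.634 CPM in Tet2+/+ mice and at 3.26, 1.09 and 0.814 CPM in Tet2-/- mice. The genotypes overlapped throughout, with a log2 fold change of -0.38 (SE 0.76, edgeR adjusted p = 0.927). *Ighe* had 28 reads in mouse 5, 2 in mouse 23 and none in the other 4 mice, and its fitted log2 fold change of 2.86 (SE 1.86, edgeR adjusted p = 0.741) rests on mouse 5.

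Per length, in TPM (reads scaled for transcript length and library size), *Ighm* had the highest mean of the constant genes in both genotypes, at 316 ± 61.7 TPM in Tet2+/+ mice and 103 ± 12.4 TPM in Tet2-/- mice (SD, n = 3). *Igha* followed at 217 ± 65.2 and 50.6 ± 43.6 TPM, and in mouse 5 it was above *Ighm* (100.1 against 91.2 TPM). The next were *Ighg2b* at 53.8 ± 32.6 and *Ighg2c* at 48.6 ± 23.8 TPM in Tet2+/+ mice, which did not differ beyond their spread. *Ighg3* at 10.9 ± 10.1 and *Ighg1* at 9.60 ± 2.39 TPM did not differ beyond their spread either. *Ighd* at 0.956 ± 0.647 TPM and *Ighe* at 0.0182 ± 0.0315 TPM closed the order.

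**Figure D2:**
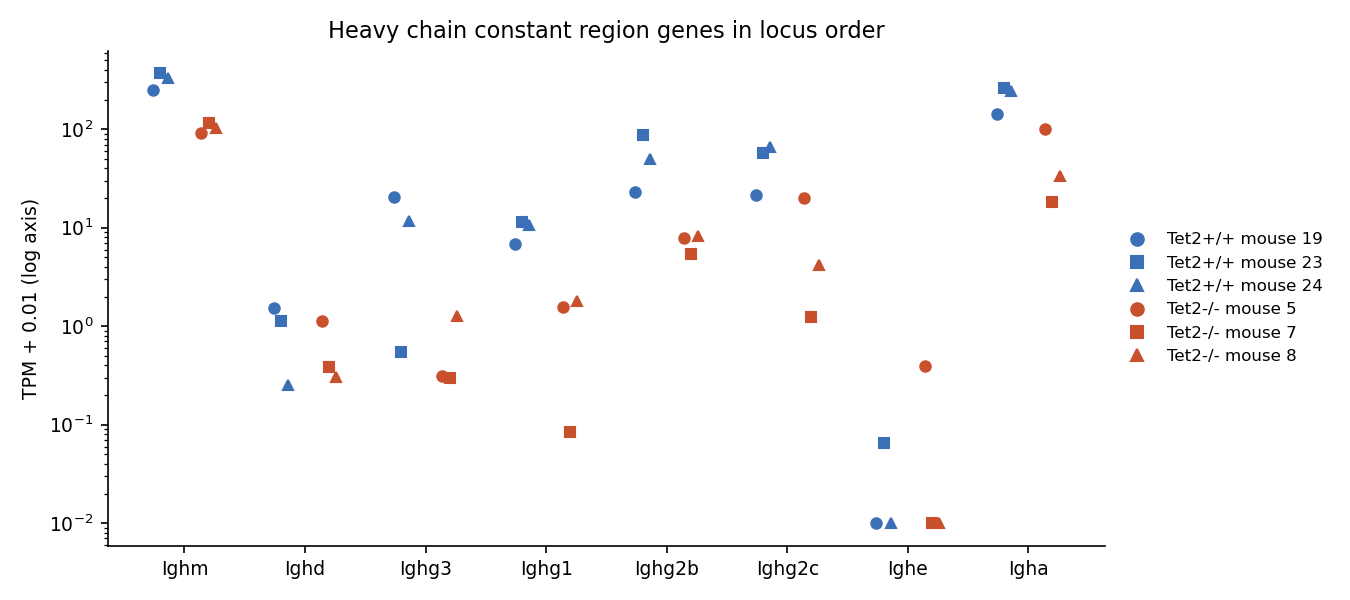
TPM plus 0.01 on a log axis for the 8 constant genes in the order of the locus from *Ighm* to *Igha*, 1 point per mouse, blue for Tet2+/+ and red for Tet2-/-. The genotypes are apart for *Ighm*, *Ighg1*, *Ighg2b*, *Ighg2c* and *Igha* and overlap for *Ighd*, *Ighg3* and *Ighe*.

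The shares of most isotypes among C reads differed more between the Tet2-/- mice than between the Tet2+/+ mice. *Ighg2b* and *Ighg3* did the reverse, with SDs of 2.56 and 1.80 percentage points in Tet2+/+ mice against 0.696 and 0.269 in Tet2-/- mice. *Ighm* took 63.0, 56.5 and 55.7% of the C reads in Tet2+/+ mice (58.4 ± 4.02%, SD, n = 3) and 51.3, 86.9 and 75.9% in Tet2-/- mice (71.4 ± 18.2%). *Igha* took 24, 27 and 28.1% (26.4 ± 2.13%) against 36.9, 9.20 and 16.3% (20.8 ± 14.4%). Both shares overlapped between genotypes, with mouse 5 on one side of the Tet2+/+ mice and mice 7 and 8 on the other.

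The 4 IgG genes together took 12.6, 16.3 and 16.1% of C reads in Tet2+/+ mice (15.0 ± 2.08%, SD, n = 3) and 11, 3.57 and 7.57% in Tet2-/- mice (7.39 ± 3.72%), without overlap. In mouse 7, the mouse with the lowest share, the exact 95% binomial interval was 3.10 to 4.10%, which covers counting error only.

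The 2 annotated 3′ ends of *Ighm* behaved differently from each other. They share 1305 coding bases and then part, and the coding ends of both are shown because reads over them tell a secreted from a membrane-anchored IgM. Lower case marks the last 30 shared bases and capitals the 62 bases that only the secreted form has and the 125 that only the membrane form has.
Ighm secreted: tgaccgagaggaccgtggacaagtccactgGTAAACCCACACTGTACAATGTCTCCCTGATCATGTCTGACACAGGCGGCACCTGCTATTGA
Ighm membrane: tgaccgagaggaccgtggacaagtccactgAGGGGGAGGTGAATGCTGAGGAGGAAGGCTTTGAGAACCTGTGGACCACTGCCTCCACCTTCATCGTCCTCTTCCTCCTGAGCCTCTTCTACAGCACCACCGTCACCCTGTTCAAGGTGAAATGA

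The secreted form was lower in each Tet2-/- mouse, and the membrane form was not. The secreted form was at 544, 724 and 691 CPM in Tet2+/+ mice and at 133, 245 and 171 CPM in Tet2-/- mice, a 3.57-fold difference of means without overlap. The membrane form was at 96.3, 128 and 69.7 CPM in Tet2+/+ mice (97.9 ± 29.1, SD, n = 3) and at 123, 61.8 and 90.4 CPM in Tet2-/- mice (91.7 ± 30.6), a 1.07-fold difference of means with the mice of both genotypes intermingled.

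The secreted share of *Ighm* reads was therefore 84.9, 85.0 and 90.8% in Tet2+/+ mice (86.9 ± 3.38%, SD, n = 3) and 51.9, 79.9 and 65.4% in Tet2-/- mice (65.7 ± 14.0%). The shares did not overlap between genotypes, and their difference of -21.2 percentage points had p = 0.1 in an exact two-sided permutation test over the 6 mice, which is the smallest p that 3 against 3 can give. Exact 95% binomial intervals were 50.9 to 53.0% in mouse 5, 78.7 to 81.0% in mouse 7 and 64.0 to 66.7% in mouse 8, so these mice differed from each other by more than counting error.

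**Figure D3:**
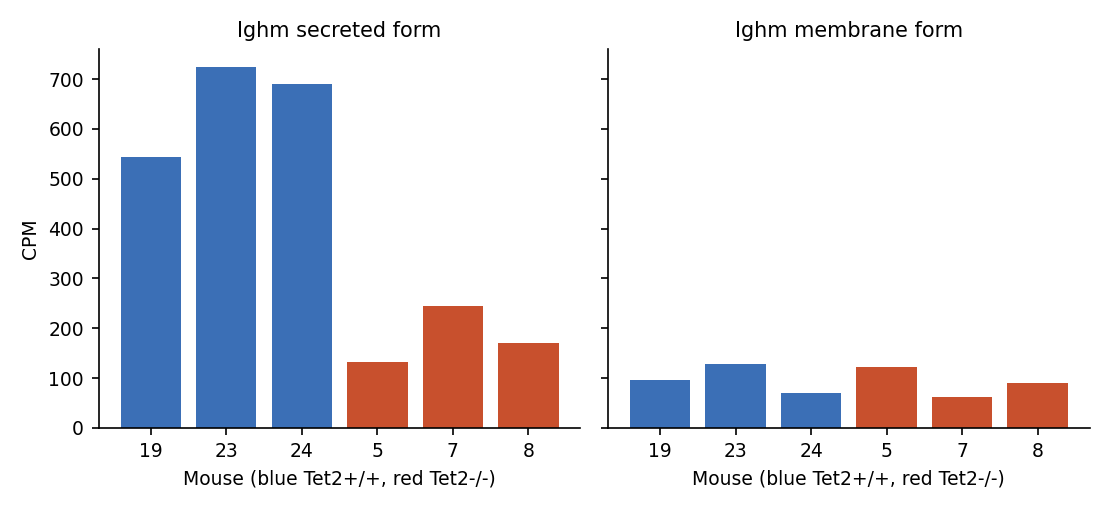
CPM of the secreted (left) and membrane (right) form of *Ighm* in each mouse, on the same axis from 0, blue for Tet2+/+ and red for Tet2-/-. The secreted form is at 544 to 724 CPM in blue and 133 to 245 CPM in red, and the membrane form at 69.7 to 128 CPM in blue and 61.8 to 123 CPM in red.

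For *Igha*, *Ighg1*, *Ighg2b* and *Ighg2c* nearly all reads fell to the secreted form in both genotypes. The secreted share of *Igha* was 99.5 ± 0.162% in Tet2+/+ mice and 99.5 ± 0.195% in Tet2-/- mice (SD, n = 3), with 1.32 to 35.9 membrane reads per mouse. It was 99.2 ± 1.01 and 98.8 ± 1.06% for *Ighg2b* and 99.6 ± 0.329 and 99.9 ± 0.174% for *Ighg2c*. *Ighg3* varied, at 98.0, 38.2 and 99.5% in Tet2+/+ mice and 54.6, 100 and 96.6% in Tet2-/- mice. *Ighd* was the opposite, with its reads on the membrane form in the Tet2-/- mice (103, 17 and 15 reads) and mostly so in Tet2+/+ mice (51.1, 44.1 and 9 reads). Salmon divides reads of the shared part between the forms by a model, so these shares are estimates.

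The 4 J segments are printed because they are the shortest members that gave reads and because the bases in capitals, TGGGGNNNNGGNAC on the coding strand, are common to them. The pattern was found in 4 of 4 J segments and, in the last 60 bases, in 0.0338% of the 138866 other transcripts. It was searched on the transcript strand only, and the sequences are those of GENCODE M21 on the minus strand of GRCm38.
Ighj1: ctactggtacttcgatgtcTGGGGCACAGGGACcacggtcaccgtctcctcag
Ighj2: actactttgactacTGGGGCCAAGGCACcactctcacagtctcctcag
Ighj3: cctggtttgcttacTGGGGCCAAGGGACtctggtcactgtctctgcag
Ighj4: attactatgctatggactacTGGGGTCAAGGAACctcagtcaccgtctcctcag

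*Ighj1*, *Ighj2* and *Ighj3* were lower in every Tet2-/- mouse, and *Ighj4* was not. *Ighj1* (chr12:113429781-113429833) was at 5.62, 8.25 and 10.4 CPM in Tet2+/+ mice and at 2.75, 1.54 and 0.922 CPM in Tet2-/- mice, a log2 fold change of -2.20 (SE 0.49, edgeR adjusted p = 0.311). *Ighj2* (chr12:113429468-113429567) was at 7.06, 14.8 and 8.66 CPM against 2.28, 1.86 and 1.36 CPM, a log2 fold change of -2.47 (SE 0.41, edgeR adjusted p = 0.158). The 2 segments agreed in which genotype was higher and in the absence of overlap.

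*Ighj3* (chr12:113429085-113429132) was at 4.79, 6.37 and 7.46 CPM in Tet2+/+ mice and at 1.39, 0.514 and 0.597 CPM in Tet2-/- mice, a log2 fold change of -2.86 (SE 0.50, edgeR adjusted p = 0.184). *Ighj4* (chr12:113428514-113428567) was at 2.87, 5.89 and 2.61 CPM against 3.92, 0.643 and 0.814 CPM, a log2 fold change of -1.06 (SE 0.76, edgeR adjusted p = 0.767). In *Ighj4*, mouse 5 was above mice 19 and 24. In that mouse it was the J segment with the most reads, 124, whereas *Ighj2* led in mice 19, 23, 7 and 8 and *Ighj1* in mouse 24. DESeq2 on the same counts called 3 of the 4 J genes lower, beside 1.47% of all genes. Its adjusted p-values were 0.00159 for *Ighj1*, 3.4e-06 for *Ighj2*, 5.6e-06 for *Ighj3* and 0.763 for *Ighj4*.

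In TPM the J segments appear far above the C genes, for example 1891 ± 849 TPM for *Ighj2* in Tet2+/+ mice (SD, n = 3), because few reads are divided by a length of 48 to 54 bases. The reads of *Ighj2* came nearly all from the 48-base segment, with only 1 to 5 reads per mouse on a second annotated transcript. The 13 D segments, 10 to 29 bases long, gave 0 reads in all 6 mice, and at such lengths reads cannot show whether they were transcribed.

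The V segments, which encode much of the antigen-binding surface, were lower as a class in the Tet2-/- mice, and single segments varied widely between mice. Of the 89 V members, 83 had a log2 fold change below 0, 50 were lower and 0 higher at an unadjusted p under 0.05 in edgeR's quasi-likelihood test, and 1 was lower after adjustment, beside 49.9, 5.12 and 0.0451% of all genes tested. DESeq2 on the same counts called 27 lower and 0 higher, beside 1.47% of all genes that it called lower. The highest level of a V member was in a Tet2+/+ mouse for 79 of 89 and in a Tet2-/- mouse for 10.

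The last 60 coding bases of the V segment with the most reads in each mouse, and of *Ighv8-12*, are shown to compare the ends of such segments. From 44.6% (*Ighv1-18*) to 95.8% (*Ighv5-16*) of the 31-base words of these segments occur in no other heavy chain gene. The ends alone thus do not show how reads were split. Capitals mark the pattern TANTANTGT or TANTANTGC on the transcript strand, which holds the codon of the conserved second cysteine. It was found in the last 40 bases of 67 of 89 V members and of 0.346% of the 138866 other transcripts.
Ighv5-9-1: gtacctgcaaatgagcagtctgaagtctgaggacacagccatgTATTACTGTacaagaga
Ighv5-16: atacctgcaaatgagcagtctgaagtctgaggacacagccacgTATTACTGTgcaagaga
Ighv6-3: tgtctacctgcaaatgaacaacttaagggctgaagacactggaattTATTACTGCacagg
Ighv6-6: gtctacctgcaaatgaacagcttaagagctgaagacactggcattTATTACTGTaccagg
Ighv1-18: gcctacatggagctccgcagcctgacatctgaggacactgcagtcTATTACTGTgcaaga
Ighv8-12: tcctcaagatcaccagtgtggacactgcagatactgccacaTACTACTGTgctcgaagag

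*Ighv8-12* (chr12:115647945-115648387, 2225 kb upstream of *Ighm*) was the one member past the adjusted threshold. It had 113, 194 and 103 reads in Tet2+/+ mice and 6, 3 and 1 in Tet2-/- mice, or 6.76, 10.4 and 7.25 CPM against 0.19, 0.193 and 0.0543 CPM. The genotypes were far apart, and the levels in Tet2-/- mice rest on few reads. It fell by 5.72 on the log2 scale (SE 0.53, adjusted p = 0.0348, the quasi-likelihood test of edgeR, Benjamini-Hochberg adjusted; lower in 3 of 3 mice). Leaving out any mouse gave adjusted p-values of 0.0667 to 0.179, and edgeR on length-scaled counts gave 0.0797. Of its 31-base words, 51.7% occur in no other heavy chain gene and 33.3% are shared with *Ighv8-5*.

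*Ighv14-1* and *Ighv14-2* were nearly absent from the Tet2-/- mice. *Ighv14-1* had 47.2, 30.7 and 23.8 reads in Tet2+/+ mice and 1.27, 0 and 0 in Tet2-/- mice, a log2 fold change of -6.61 (SE 0.79, edgeR adjusted p = 0.0760). *Ighv14-2* had 26.8, 39.0 and 85.0 reads against 0, 0 and 2.42, a log2 fold change of -6.38 (SE 1.14, edgeR adjusted p = 0.192). These 2 genes share 51.1% of their 31-base words, so reads could have been divided between them. The fitted folds of such low counts depend on the fit's prior count.

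The leading segment of each V family had lower values in the Tet2-/- mice in most families. *Ighv1-72*, first of the V1 family, was at 6.40, 22.5 and 17.4 CPM in Tet2+/+ mice and at 1.99, 1.22 and 0.543 CPM in Tet2-/- mice, a log2 fold change of -3.60 (SE 0.64, edgeR adjusted p = 0.193). Only 1.91% of its 31-base words are unique and 80.3% are shared with *Ighv1-62-3*, so its level is uncertain. *Ighv3-6*, first of V3, was at 7.42, 11.9 and 18.4 CPM against 2.25, 0 and 2.50 CPM.

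In V6, *Ighv6-3* was at 9.99, 8.41 and 18.6 CPM in Tet2+/+ mice and at 1.93, 3.47 and 2.17 CPM in Tet2-/- mice. Its log2 fold change was -2.29 (SE 0.43, edgeR adjusted p = 0.213). *Ighv6-6*, of the same family, was at 26.7, 4.34 and 10.5 CPM against 1.87, 4.50 and 4.23 CPM. The genotypes were apart for the first and overlapped for the second, where mouse 23 was below mouse 7.

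The other segments among the 8 highest were *Ighv1-9*, *Ighv1-26*, *Ighv1-53* and *Ighv5-16*. *Ighv1-9* was at 7, 6.53 and 16.7 CPM in Tet2+/+ mice and at 0.886, 1.80 and 4.23 CPM in Tet2-/- mice. *Ighv1-26* was at 4.79, 18.3 and 15.0 CPM against 3.61, 4.44 and 1.74 CPM. *Ighv1-53* was at 11.3, 14.0 and 6.97 CPM against 3.32, 3.54 and 0.651 CPM. For each of these 3 genes the genotypes did not overlap, with log2 fold changes of -2.13, -1.96 and -2.10 and edgeR adjusted p-values of 0.525, 0.496 and 0.504.

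*Ighv5-16* and *Ighv5-9-1*, both of the V5 family, each had most of their reads in a single mouse. *Ighv5-16* had 37, 724 and 50 reads in Tet2+/+ mice and 1, 1 and 10 in Tet2-/- mice, a log2 fold change of -6.16 (SE 1.54, edgeR adjusted p = 0.392). *Ighv5-9-1* had 10.1, 30.5 and 55.6 reads against 563, 0 and 26, a log2 fold change of 1.65 (SE 1.58, edgeR adjusted p = 0.832). Without mouse 5 the latter was -1.54, and it was the one segment above a mean of 1 CPM whose Tet2-/- mean was at least 3 times that of the Tet2+/+ mice.

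*Ighv11-2*, a segment known for its use by B-1 cells, and *Ighv1-52* had fitted changes near 0. *Ighv11-2* was at 0.598, 1.93 and 2.68 CPM in Tet2+/+ mice and at 3.16, 2.44 and 1.36 CPM in Tet2-/- mice, a log2 fold change of 0.43 (SE 0.61, edgeR adjusted p = 0.891). *Ighv1-52* was at 1.5, 2.62 and 1.62 CPM against 2.06, 1.86 and 0.868 CPM, a log2 fold change of -0.26 (SE 0.48, edgeR adjusted p = 0.921), and 60.6% of its 31-base words are shared with *Ighv1-61*. The genotypes overlapped for both.

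The remaining family leaders were at lower levels. *Ighv4-1* was at 7.42, 2.89 and 2.39 CPM in Tet2+/+ mice and at 0.886, 1.16 and 0.109 CPM in Tet2-/- mice, *Ighv9-3* at 6.58, 11 and 6.41 against 1.68, 4.95 and 0.651 CPM, and *Ighv2-9-1* at 2.15, 5.73 and 1.83 against 0.728, 0 and 0.326 CPM. For these 3 and for *Ighv10-3* (1.14, 1.28 and 3.03 against 0.0633, 0 and 0 CPM) and *Ighv13-2* (0.658, 1.61 and 0.563 against 0.0949, 0 and 0 CPM) the genotypes did not overlap. They overlapped for *Ighv7-3*, at 3.83, 3.43 and 1.83 against 1.23, 3.09 and 0.760 CPM, and for *Ighv12-3*, which had 24, 0 and 9 reads in Tet2+/+ mice and 20, 2 and 11 in Tet2-/- mice.

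By family, 10 of the 14 had summed levels that did not overlap, each lower in the Tet2-/- mice, and V5, V10, V11 and V12 overlapped (single genes were apart in this direction for 7.94% of all genes tested). V1, with 46 members the largest, summed to 121, 188 and 182 CPM in Tet2+/+ mice and to 45.5, 40.3 and 22.2 CPM in Tet2-/- mice, and its members had a median log2 fold change of -2.62. V8, with 4 members, summed to 9.03, 13.4 and 22.5 CPM against 0.633, 0.900 and 0.217 CPM, a 25.7-fold difference of means. Most V8 reads were of *Ighv8-12* and *Ighv8-8*. The genotypes overlapped for *Ighv8-4* and *Ighv8-6*, with log2 fold changes of -0.81 and -0.25. V14, with 4 members, summed to 5.68, 8.30 and 9.51 CPM against 0.443, 0.321 and 0.705 CPM, a 16.0-fold difference.

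As shares of V reads, most families overlapped between the genotypes (10 of 14). V8 took 4.02, 3.94 and 7.04% of V reads in Tet2+/+ mice and 0.692, 1.35 and 0.505% in Tet2-/- mice, and V14 took 2.53, 2.42 and 2.94% against 0.494, 0.498 and 1.64%. V13, with a single member, was also lower as a share. V11 was higher, at 0.267, 0.567 and 0.834% against 3.53, 3.79 and 3.16%. The V1 share was 54.1, 55.4 and 56.9% in Tet2+/+ mice and 50.7, 62.5 and 51.9% in Tet2-/- mice. These shares are descriptions of 3 mice each and were not tested.

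By position, the V members were split into blocks of 30, 30 and 29 from the J side outwards. The proximal block, from *Ighv2-2* to *Ighv3-5*, lay 166 to 840 kb upstream of *Ighm* and had a median log2 fold change of -2.47. The middle block, 865 to 1601 kb upstream, had a median of -2.21, and the distal block, from *Ighv1-50* to *Ighv1-85* at 1697 to 2577 kb, a median of -2.87. At an unadjusted p under 0.05, 16, 16 and 18 of them were lower, and the number with a log2 fold change below 0 was 28, 26 and 29, beside 5.12% and 49.9% of all genes tested.

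The summed level of the distal block was 94.7, 139 and 145 CPM in Tet2+/+ mice and 30.8, 25.3 and 11.8 CPM in Tet2-/- mice. That of the proximal block was 45.8, 108 and 59.9 CPM against 35.8, 12.7 and 11 CPM. The difference of means was 3.58-fold in the proximal, 4.19-fold in the middle and 5.58-fold in the distal block. The proximal sums include *Ighv5-16* in mouse 23 and *Ighv5-9-1* in mouse 5, and a difference between the blocks was not tested.

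**Figure D4:**
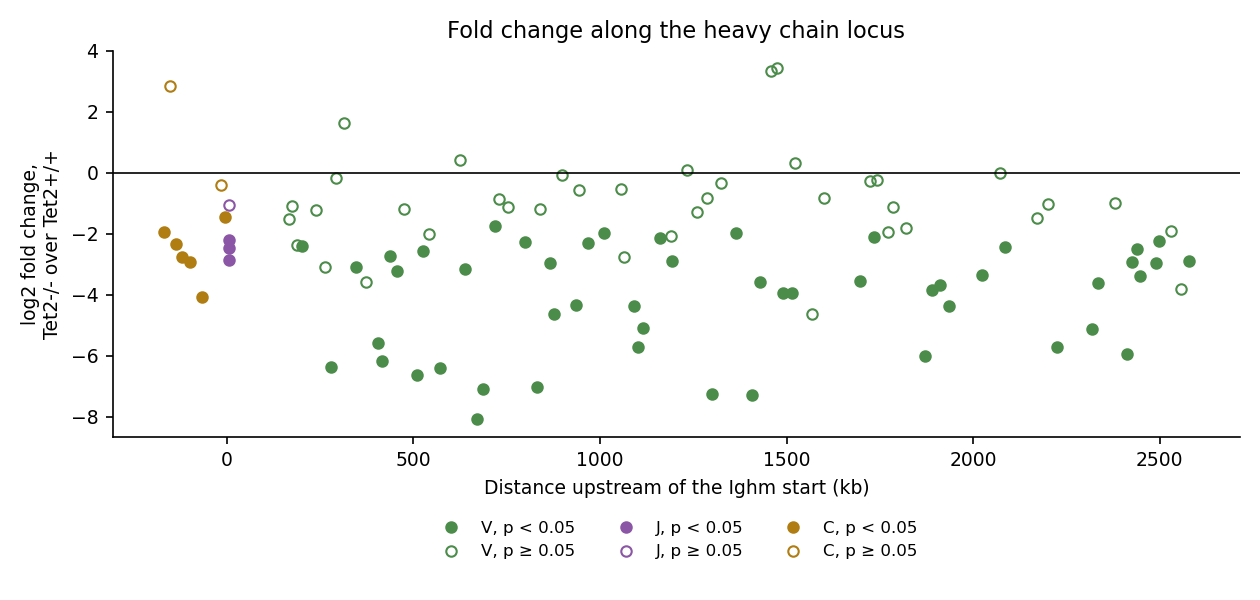
Fitted log2 fold change (Tet2-/- over Tet2+/+) of the 101 members against distance upstream of the start of *Ighm* in kb, with V in green, J in purple and C in ochre, filled where the unadjusted edgeR p is under 0.05. Points below 0 (94 of 101) lie along the whole locus, and the 7 above 0 are open.

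Among the 7 members above 0, *Ighv1-36* and *Ighv1-37*, singled out after their values were seen, had the largest fitted folds, 3.34 and 3.43, with 23.5 and 17.1 reads in all, of which 22.4 were in mouse 5 and 16 in mouse 8, so that each fold rests on a single mouse. At the other end, 6 V members had no read in any Tet2-/- mouse (*Ighv5-12*, *Ighv9-1*, *Ighv9-2*, *Ighv3-4*, *Ighv1-20* and *Ighv1-31*). Reads of such genes could come mostly from 1 Tet2+/+ mouse: *Ighv9-1* had 9.22, 7.02 and 61.8 reads and *Ighv5-12* 2, 27.4 and 0.

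At equal depth, V reads were spread over fewer segments in the Tet2-/- mice. At least 1 read was found for 81, 84 and 84 V members in Tet2+/+ mice and for 75, 48 and 54 in Tet2-/- mice, whose V reads were also fewer (3748, 6350 and 4553 against 2836, 1004 and 791). The rule for members leans on the genotype with more reads, and over all 113 annotated V genes the numbers were 84, 91 and 92 against 86, 50 and 55, so that mouse 5 was above mouse 19. Brought by calculation to an equal depth of 792 reads, these became 70.1, 75.1 and 77.8 against 67.8, 48.9 and 55, without overlap but with mouse 5 close to mouse 19. The effective number of segments (the exponential of the Shannon entropy) over all annotated V genes was 40.7, 45.8 and 49.6 against 32.1, 28.2 and 32.6. This effective number was taken at each mouse's own depth.

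The segment with the most reads differed between most mice. It was *Ighv6-6* in mouse 19 with 11.9% of V reads (exact 95% binomial interval 10.9 to 13%), *Ighv5-16* in mouse 23 with 11.4% (10.6 to 12.2%) and *Ighv6-3* in mouse 24 with 5.80% (5.14 to 6.52%). In the Tet2-/- mice it was *Ighv5-9-1* in mouse 5 with 19.9% (18.4 to 21.4%), *Ighv1-18* in mouse 7 with 8.76% (7.09 to 10.7%) and *Ighv6-6*, level with *Ighv1-9*, in mouse 8 with 9.86% (7.87 to 12.2%). The 10 segments with the most reads took 47.1, 46.5 and 44.3% of V reads in Tet2+/+ mice and 56.4, 61.2 and 56.4% in Tet2-/- mice. These shares were taken over the members and at each mouse's own depth, which was not made equal.

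**Figure D5:**
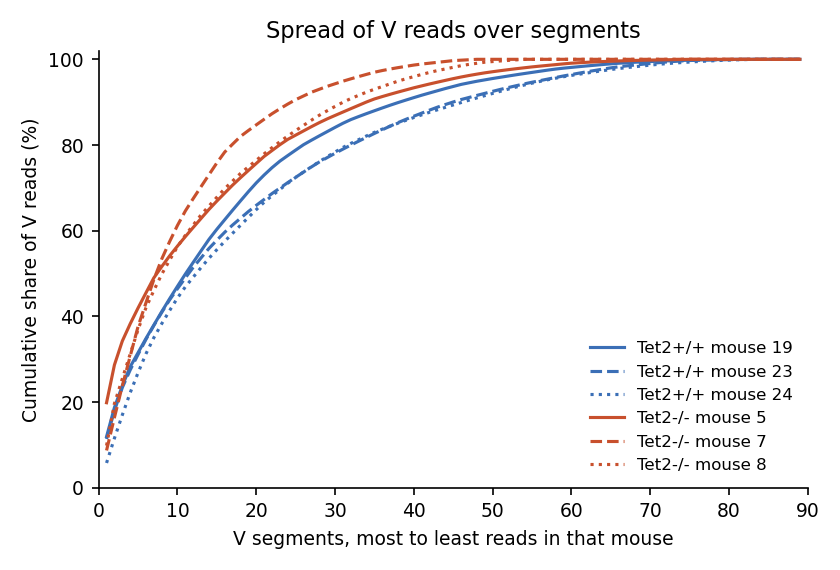
Cumulative share of V reads in percent against the number of V segments, ordered within each mouse from most to least reads, blue for Tet2+/+ and red for Tet2-/-. The red lines lie above the blue at 10 segments (56.4 to 61.2% against 44.3 to 47.1%), and mouse 5 starts highest, at 19.9% for its first segment. The lines are drawn over the members, and depth was not made equal between mice.

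The levels of V members varied widely between mice of 1 genotype. Among genes with a mean of 1 to 30 CPM within the genotype, the median coefficient of variation was 61.2% for 60 V members and 23.4% for 7834 other genes in Tet2+/+ mice, and 75.0% for 23 V members and 32.7% for 7287 other genes in Tet2-/- mice. The V members in this range were also lower, with median levels of 3.01 and 1.92 CPM against 7.10 and 6.85 CPM for the other genes, and the part of this in the variation was not tested. Of the 89 V members, 31 had a read in all 6 mice, 75 in all 3 Tet2+/+ mice and 33 in all 3 Tet2-/- mice.

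In the list of V(D)J recombination, 0 of 12 genes tested passed the adjusted threshold in edgeR, 2 were lower and 0 higher at an unadjusted p under 0.05, and DESeq2 on the same counts called 1 lower. The median log2 fold change was 0.18. The 2 were *Rag2*, a subunit of the recombinase, at 1.26, 2.30 and 0.704 CPM in Tet2+/+ mice and 0.19, 0.321 and 0.163 CPM in Tet2-/- mice, and *Dntt*, which adds untemplated bases at the joints, at 0.0598, 0.428 and 1.34 against 0.0633, 0 and 0 CPM. *Rag1*, its partner subunit, had too few reads to be tested.

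In the list of class switching and hypermutation, 0 of 13 passed the adjusted threshold in edgeR, 1 was lower and 0 higher at an unadjusted p under 0.05, DESeq2 on the same counts called 0, and the median was -0.03. Partners of the B cell receptor had a median of 0.00 over 13 genes, with 0 lower and 2 higher at an unadjusted p under 0.05 and 0 called by either tool after adjustment. Their summed level was 1152 to 1339 CPM in Tet2+/+ mice and 1395 to 1625 CPM in Tet2-/- mice, without overlap. Most of this sum came from *Plcg2*, *Syk*, *Lyn* and *Btk*. *Cd79a*, the signalling chain of membrane immunoglobulin, was at 9.69, 12.2 and 3.8 CPM in Tet2+/+ mice and at 10.5, 2.96 and 2.17 CPM in Tet2-/- mice, with overlap. The surrogate light chain list had 3 genes tested and none past any threshold.

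Receptors for antibodies, several of which myeloid cells carry, had a median of 0.26 over 13 genes, with 0 past the adjusted threshold in edgeR, 1 lower and 0 higher at an unadjusted p under 0.05 and 1 called lower by DESeq2 on the same counts. Their summed level was 859 to 915 CPM in Tet2+/+ mice and 956 to 1180 CPM in Tet2-/- mice, without overlap. *Fcer1g*, the signalling chain shared by Fc receptors, was at 303, 345 and 298 CPM in Tet2+/+ mice and at 349, 463 and 434 CPM in Tet2-/- mice.

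Markers of other cells were measured beside these results. In the plasma cell list, 0 of 18 genes passed the adjusted threshold in edgeR, 3 were lower and 1 higher at an unadjusted p under 0.05, DESeq2 on the same counts called 2 lower, and the median was -0.43. The summed level was 971 to 1222 CPM in Tet2+/+ mice and 858 to 1224 CPM in Tet2-/- mice, most of it from genes such as *Edem1* and *Xbp1* that myeloid cells also express. *Jchain*, the protein that links IgM and IgA into polymers, was at 98.5, 165 and 135 CPM against 44.1, 27.6 and 26.6 CPM, a log2 fold change of -2.02 (SE 0.29, edgeR adjusted p = 0.116). Its mice did not overlap and stood in the same order within each genotype as the summed heavy chain level.

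*Mzb1*, a chaperone of IgM assembly, was at 34.7, 16.1 and 2.53 CPM in Tet2+/+ mice and at 4.18, 1.16 and 2.71 CPM in Tet2-/- mice, with overlap and a log2 fold change of -2.71 (SE 0.90, edgeR adjusted p = 0.546). *Derl3*, the other gene of the list that was lower at an unadjusted p under 0.05 beside *Jchain* and *Mzb1*, was at 3.71, 2.62 and 2.18 CPM against 1.52, 0.579 and 0.922 CPM, a log2 fold change of -1.47 (SE 0.48, edgeR adjusted p = 0.544). *Irf4* and *Eaf2* had fitted changes of -0.88 and -0.78 and did not overlap between genotypes either. *Sdc1*, the plasma cell surface protein CD138, was at 1.62, 2.09 and 2.39 CPM against 1.80, 0.193 and 0.217 CPM. *Fkbp11*, the gene of the list that was higher at an unadjusted p under 0.05, was at 1.62, 1.12 and 3.17 CPM against 15.8, 4.05 and 2.98 CPM, a log2 fold change of 1.96 (SE 0.74, edgeR adjusted p = 0.599). *Creld2*, *Xbp1*, *Edem1* and *Sec11c* also had fitted changes above 0 (0.67, 0.55, 0.43 and 0.08), none past the adjusted threshold. *Edem1* was higher in every Tet2-/- mouse, at 268, 301 and 227 CPM against 335, 313 and 426 CPM. Of the list, 4 genes were lower and 1 higher without overlap, and 7.94% of all genes tested were lower in this way. No gene of the list was at 0 in all 6 mice. The part of plasma cells in the heavy chain difference was not tested.

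In the B cell list, 0 of 15 genes passed the adjusted threshold in edgeR, 2 were lower and 0 higher at an unadjusted p under 0.05, DESeq2 on the same counts called 1 lower, and the median was -0.70. The summed level was 314 to 362 CPM in Tet2+/+ mice and 261 to 373 CPM in Tet2-/- mice, with overlap, and most of it came from *Cd37*, at 255, 178 and 237 CPM against 231, 308 and 159 CPM. The 2 lower genes were *Fcer2a*, the low-affinity IgE receptor, at 1.20, 7.44 and 3.10 CPM against 0.601, 0.772 and 0.651 CPM, and *Bank1*, a B cell adaptor, at 12.7, 22.3 and 18.4 CPM against 5.85, 11.4 and 10.9 CPM. No gene of this list was at 0 in all mice. The part of B cells in the result was not tested.

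T and NK cell genes summed to 48.8 to 50.9 CPM in Tet2+/+ mice and to 16.9 to 48.0 CPM in Tet2-/- mice, without overlap. Their median was -0.58, with 0 of 10 past the adjusted threshold in edgeR, 1 lower at an unadjusted p under 0.05 and 1 called lower by DESeq2 on the same counts. Erythroid genes summed to 5.77 to 145 CPM against 7.71 to 15.2 CPM, with mouse 19 highest, and plasmacytoid dendritic cell genes to 26.2 to 55.2 against 20.9 to 56.8 CPM. The median log2 fold change was -2.21 for the erythroid list, with 7 of 7 genes tested below 0, and -0.63 for the plasmacytoid list. In these 2 lists 0 of 7 and 0 of 6 genes passed the adjusted threshold in edgeR, 1 of each was lower at an unadjusted p under 0.05 and DESeq2 on the same counts called 0 and 1. In the plasmacytoid list the lower gene was *Siglech*, at 2.09, 2.41 and 1.62 CPM against 0.316, 0.386 and 0.434 CPM, a log2 fold change of -2.42 (SE 0.42, edgeR adjusted p = 0.185), and most of the sum came from *Bst2* and *Tcf4*. Their part in the heavy chain result was not tested.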

How the data were processed

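RNA of sorted AML blasts from 6 mice was sequenced after a TruSeq RNA v2 preparation, which does not mark strand. The deposited files hold, per transcript, estimated counts and TPM made by the authors with Salmon 0.12.0 against GRCm38.p6 (mm10), Ensembl 94, per the paper's methods and the submitters' processing notes. Here, estimated counts were summed to genes with GENCODE M21 and rounded. Of 136288 transcripts, 112 matched no gene and held 0.0307 to 0.0416% of reads. The 22170 genes whose scaled counts summed to at least 10 were fitted with edgeR 4.0.16 (R 4.3.3, TMM factors 0.867 to 1.11, glmQLFit, glmQLFTest, Benjamini-Hochberg over all genes). SEs were derived from the fold change and its F statistic. The test was tested on simulated data. A common biological coefficient of variation of 43.6% was estimated. Mice are labelled as separate samples with no batch.

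DESeq2 1.42.0, length-scaled counts, other filters and scalings and leaving out each mouse were the alternatives. Unique words of 31 bases were counted among annotated heavy chain transcripts. Intervals cover counting error only. Named V segments were the leader of each family, the 8 highest, any with an adjusted p under 0.05, and the 3 most negative and 3 most positive above 1 CPM. Members and lists were chosen with earlier results of these data known. Promoters and proteins of the members were not used here. Sequences are from GENCODE M21.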

Additional observations from a re-analysis of the deposited data

How the results depend on the processing

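The members with an adjusted p under 0.05 numbered 1 in the reported fit, 34 with DESeq2 on the same counts, 30 with DESeq2 and 0 with edgeR on length-scaled counts, 9 with no filter on low counts, and 0 to 0 when any 1 of the 6 mice (19, 23, 24, 5, 7 or 8) was left out. Over all genes these settings called 10, 326, 322, 5, 62 and 0 to 7 lower. The count at an unadjusted p under 0.05 was 49 to 60 (768 to 1159 over all genes) and the median log2 fold change -3.10 to -2.25 when a mouse was left out, the extreme being without mouse 5. The summed level differed by -2.33 on the log2 scale in TPM, where J segments weigh more, and by -1.99 to -1.66 without 1 mouse. The secreted share of *Ighm* differed by -28.3 to -14.3 percentage points without 1 mouse, the smallest without mouse 5. The *Ighm* share of C reads differed by 5.18 (without mouse 7) to 23 (without mouse 5), the IgG share by -9.47 to -5.75 and the *Igha* share by -13.6 (without mouse 5) to 0.227 (without mouse 7) percentage points. Without 1 mouse, the log2 fold change of 4 single genes reversed, over -1.25 to 0.11 for *Ighd* and -1.17 to 0.61 for *Ighv12-3* (both positive without mouse 19), -1.54 (without mouse 5) to 2.50 for *Ighv5-9-1*, and -0.49 to 0.034 for *Ighv1-52* (0.023 without mouse 23, 0.034 without mouse 8). The cause of these changes was not tested. Of the 33 C, J and V genes refitted singly, the other 29 kept their sign in each setting in which they were tested (*Ighe* was not tested without mouse 5 or under the filterByExpr filter). The number of V segments with a read over all annotated V genes, chosen after seeing the data, overlapped between genotypes, and at equal depth it did not. No paired analysis was possible because the mouse numbers are not shared between genotypes. Low read counts limit most V segments.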
